A study of Mus musculus with 22 samples.

Results

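The occupancy of MTF2 was set against that of SUZ12 at the transcription start sites (TSSs) of mouse neural progenitor cells (NPC). The comparison holds 2 MTF2 and 2 SUZ12 libraries, 4 of the 22 libraries of the series, with the single IgG library of NPC as background. All 22 libraries came from C57BL/6 cells labelled as untagged and Tir1, which were otherwise untreated. The NPC were made from embryonic stem cells (ESC) over 72 h in bFGF (10 ng/mL) and then 48 h in SAG (500 nM), which activates Hedgehog signalling. In CUT&RUN a nuclease bound to an antibody cuts out the DNA around its target, and the released fragments were counted in windows of 5000 bp, each centred on 1 TSS per gene. The ESC libraries of MTF2, SUZ12 and IgG, from cells kept in serum-free medium with LIF, CHIR99021 and PD0325901, are used where the 2 cell types are set side by side.

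PRC2 is the Polycomb complex that methylates lysine 27 of histone H3, the mark of silenced developmental genes. SUZ12 is a core subunit that every form of PRC2 carries. MTF2, a Polycomb-like protein that binds DNA rich in unmethylated CpG, belongs to the form PRC2.1, whereas JARID2 belongs to PRC2.2. SUZ12 therefore reports PRC2 as a whole, and MTF2 reports only the PRC2.1 that carries MTF2. The antibodies differ, and their efficiencies cannot be compared from their counts.

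The total counts over 24467 windows were 439379 and 517104 for MTF2 and 465885 and 448667 for SUZ12, with 667898 for IgG, so that 3 counts were worth 4.49 to 6.83 CPM, a count scaled to a library of 1000000. Levels are given as scaled CPM, after TMM scaling over these 5 libraries, and a ratio to IgG is on the log2 scale with a prior count of 2. H3K4me3, the mark of active promoters, was higher in both NPC libraries than in both ESC libraries at 5 of 5 NPC markers (Sox1, Pax6, Nes, Fabp7 and Meis1) and lower at 5 of 5 pluripotency markers. Summed over the NPC markers it was 724 and 738 CPM in NPC against 179 and 171 CPM in ESC. It was also higher in NPC at 3 of 4 neuronal markers (summed 72.6 and 72.8 CPM in NPC, 44.0 and 45.8 CPM in ESC). Of 3 mesoderm markers 1 was higher and 2 were lower in NPC (67.1 and 56.7 CPM in NPC, 73.4 and 70.7 CPM in ESC). Of 3 endoderm markers 1 (Foxa2) was higher and 1 (Sox17) lower (165 and 175 CPM in NPC, 106 and 84.8 CPM in ESC). The part of other cell types in the results was not tested. The labels list the libraries as biological replicates without naming the cultures, and p-values measure the spread between these libraries.

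Developmental regulators carried both proteins in NPC, and promoters of 4 genes are printed as examples. Evx2 and Olig2, homeobox and bHLH genes of the neural tube, were among the TSSs with both MTF2 and SUZ12. Hoxd10 had a low ratio of MTF2 to SUZ12 that was not called as different. Nanog reached a log2 ratio of 1 to IgG in none of the 4 libraries. Each sequence runs from 250 bases before to 50 bases after the start (RefSeq, GRCm38.p6) and lies within the window of 5000 bp that was counted, with CG dinucleotides in capitals. The Evx2 promoter (chr2:74659508-74659807, minus strand) holds 16 CG, the Olig2 promoter (chr16:91225300-91225599, plus strand) 25, the Hoxd10 promoter (chr2:74691641-74691940, plus strand) 22 and the Nanog promoter (chr6:122707239-122707538, plus strand) 4. The Cdkn2a and Suz12 promoters hold 45 and 41 CG, although those TSSs reached a log2 ratio of 1 in none of the 4 libraries.
Evx2: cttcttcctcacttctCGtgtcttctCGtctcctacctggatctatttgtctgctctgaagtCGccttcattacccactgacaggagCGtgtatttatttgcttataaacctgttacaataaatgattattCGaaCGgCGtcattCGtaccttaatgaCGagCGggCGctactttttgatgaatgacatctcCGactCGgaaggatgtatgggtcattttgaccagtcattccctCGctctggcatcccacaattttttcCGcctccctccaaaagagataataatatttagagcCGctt
Olig2: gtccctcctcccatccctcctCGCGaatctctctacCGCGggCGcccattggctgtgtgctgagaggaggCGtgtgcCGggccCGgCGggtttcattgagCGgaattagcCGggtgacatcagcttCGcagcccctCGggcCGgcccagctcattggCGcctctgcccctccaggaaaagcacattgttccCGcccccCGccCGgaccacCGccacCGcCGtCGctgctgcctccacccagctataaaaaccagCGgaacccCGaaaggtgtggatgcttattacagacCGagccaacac
Hoxd10: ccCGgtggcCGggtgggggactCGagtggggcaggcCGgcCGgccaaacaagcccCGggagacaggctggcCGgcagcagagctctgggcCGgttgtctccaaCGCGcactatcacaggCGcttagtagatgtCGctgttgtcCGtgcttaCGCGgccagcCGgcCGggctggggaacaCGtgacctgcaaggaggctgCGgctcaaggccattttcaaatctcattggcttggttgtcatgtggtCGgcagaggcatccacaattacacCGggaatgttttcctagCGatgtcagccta
Nanog: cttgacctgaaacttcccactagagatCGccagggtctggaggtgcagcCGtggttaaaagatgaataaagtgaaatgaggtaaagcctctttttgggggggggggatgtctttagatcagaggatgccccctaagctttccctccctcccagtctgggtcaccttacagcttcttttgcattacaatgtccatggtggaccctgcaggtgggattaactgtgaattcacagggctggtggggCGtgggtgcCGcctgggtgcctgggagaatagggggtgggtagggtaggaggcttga

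At TSSs marked by H3K27me3 in NPC and bound by SUZ12 in ESC, the 2 MTF2 libraries stood on either side of the 2 SUZ12 libraries. These windows were defined without the 4 libraries, as the 972 TSSs (3.97% of all windows) with H3K27me3 called above IgG in NPC and SUZ12 called above IgG in ESC. They are called Polycomb TSSs below, 968 of them passed the filter on low counts, and 231 overlap the window of another gene. They held 6.65% and 12.8% of the counts of the MTF2 libraries, against 9.45% and 9.44% for SUZ12 and 4.19% for IgG. MTF2 replicate 1 was the weakest of the 4 libraries and MTF2 replicate 2 the strongest, and both were above IgG. The mean was 9.73 ± 4.34% for MTF2 and 9.44 ± 0.0116% for SUZ12 (SD, n = 2), with p = 1 in an exact two-sided permutation test, whose smallest possible p is 0.333 with 2 libraries against 2. In ESC the same windows held 22.1% and 17.7% of the MTF2 counts and 21.4% and 18.9% of the SUZ12 counts. SUZ12 in ESC was among the marks that chose these windows, so the gap between the cell types is no result.

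**Figure D1:**
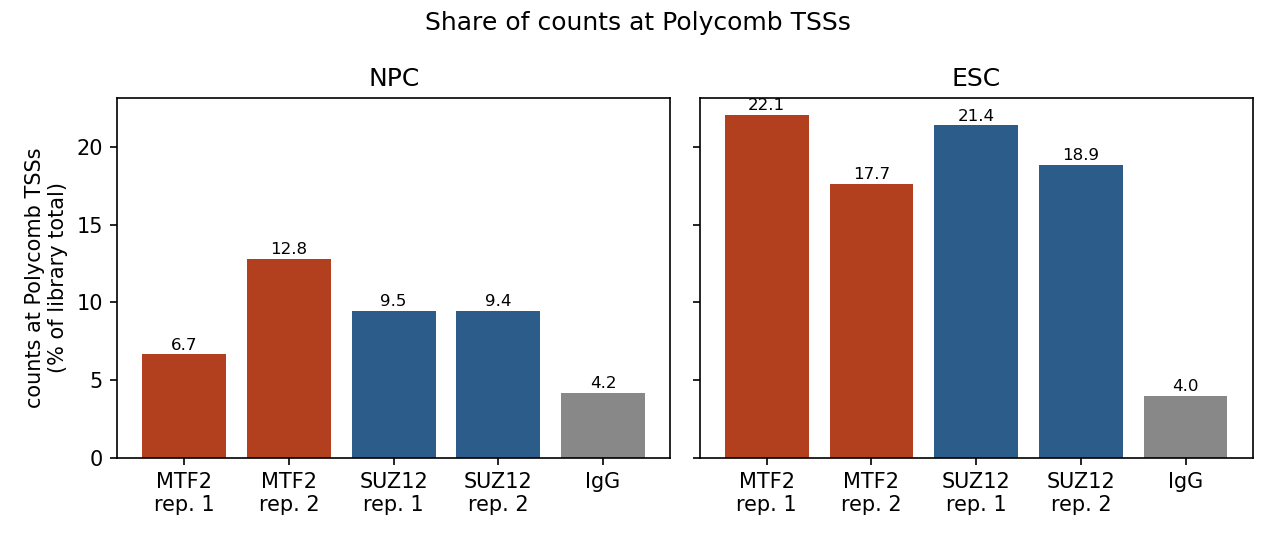
Share of each library's counts that fell in the 972 Polycomb TSS windows (percent of the library total), in NPC (left) and ESC (right), with 1 bar for each library of MTF2, SUZ12 and IgG. In NPC the SUZ12 libraries lie at 9.45% and 9.44%, between the MTF2 libraries at 6.65% and 12.8%. The SUZ12 libraries of ESC helped to choose the windows.

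The split was seen TSS by TSS. At 52.0% of the 968 Polycomb TSSs MTF2 replicate 1 lay below both SUZ12 libraries and MTF2 replicate 2 above both, against 9.69% of all 21564 TSSs tested. The median log2 ratio at Polycomb TSSs was -0.40 for MTF2 replicate 1 over either SUZ12 library, and 0.45 and 0.44 for MTF2 replicate 2 over SUZ12 replicates 1 and 2. The 2 MTF2 libraries differed from each other by a median of 0.85 (replicate 2 over replicate 1), and the 2 SUZ12 libraries by -0.02 (replicate 2 over replicate 1). Over all tested TSSs the 4 medians of MTF2 over SUZ12 lay between -0.01 and 0.00.

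Despite this difference in strength, the libraries ranked TSSs in much the same order. Across the 968 Polycomb TSSs, the log2 levels of MTF2 replicate 2 correlated with SUZ12 replicates 1 and 2 at Pearson's r of 0.91 and 0.91, and those of MTF2 replicate 1 at 0.83 and 0.83. The 2 MTF2 libraries correlated with each other at 0.85 and the 2 SUZ12 libraries at 0.91, while correlations with IgG were between 0.30 and 0.42. These are descriptions across TSSs of shared libraries, with window size and base composition in common. Of the 100 TSSs with the highest ratio to IgG in each library, 59 were shared by all 4, and 83 and 94 (MTF2) and 96 and 95 (SUZ12) were Polycomb TSSs. Each MTF2 library shared 67 to 81 of its 100 with a SUZ12 library, against 70 between the MTF2 libraries and 85 between the SUZ12 libraries.

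Of the 5 TSSs with the highest fitted ratio to IgG for each protein, 3 were the same, Nkx2-1, Lbx1 and Evx2. Nkx2-1, a forebrain and lung homeobox gene (window chr12:56532607-56537606, mm10), had 265 and 784 CPM for MTF2, against 408 and 453 CPM for SUZ12 and 41.7 CPM for IgG. All 4 libraries were above IgG, and the MTF2 values lay on either side of the SUZ12 values. Lbx1, a homeobox gene of muscle precursors and dorsal interneurons, had 209 and 723 CPM for MTF2, against 399 and 448 CPM for SUZ12 and 37.4 CPM for IgG. Evx2, the neighbour of the HoxD cluster, had 242 and 719 CPM for MTF2, against 464 and 448 CPM for SUZ12 and 38.8 CPM for IgG. At both genes the MTF2 values again lay on either side of the SUZ12 values. Sim2 (midline and kidney) and Zic1 (dorsal neural tube, in a window shared with Zic4) completed the 5 highest for MTF2, and Pax2 (kidney and midbrain-hindbrain boundary) and Otx1 (forebrain) the 5 highest for SUZ12. Pax2 had 195 and 794 CPM for MTF2, against 471 and 518 CPM for SUZ12 and 48.9 CPM for IgG.

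Calls above IgG depended on how the spread was estimated. In the joint edgeR quasi-likelihood fit, which gives both antibodies and IgG 1 spread per TSS, MTF2 was called above IgG (log2 of at least 1, Benjamini-Hochberg adjusted p below 0.05) at 9 TSSs (0.0417% of 21564) and SUZ12 at 2 (0.00927%). With SUZ12 and IgG alone in the fit SUZ12 was called at 448 TSSs (2.08%), and with MTF2 and IgG alone MTF2 was called at 1 (0.00464%). Without MTF2 replicate 1 the joint fit called MTF2 at 842 and SUZ12 at 448 TSSs, and without MTF2 replicate 2 at 149 and 446, with the spread taken from the 2 SUZ12 libraries alone. Enrichment is therefore given below by a rule with no model, a log2 ratio to IgG of 1 or more in both libraries of a protein.

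By that rule 274 TSSs (1.27%) were above IgG for MTF2 and 408 (1.89%) for SUZ12, of which 208 and 336 were among the 968 Polycomb TSSs, with 210 in both sets, which is 76.6% of the MTF2 set and 51.5% of the SUZ12 set. The single libraries passed the ratio at 401 and 1054 TSSs for MTF2 and at 630 and 620 for SUZ12, fewest in MTF2 replicate 1 and most in MTF2 replicate 2. Of the MTF2 set 247 TSSs (90.1%) and of the SUZ12 set 384 (94.1%) had H3K27me3 called in NPC, against 14.2% of all tested TSSs. Both sets and the H3K27me3 calls use the same IgG library, so a low IgG count favours each of them and their overlap. SUZ12 had been called in ESC at 210 TSSs of the MTF2 set (76.6%) and 338 of the SUZ12 set (82.8%), against 6.06% of all tested TSSs. At the 210 shared TSSs the median log2 ratio to IgG was 1.39 and 2.72 for MTF2 and 2.10 and 2.16 for SUZ12. At the 198 TSSs above IgG for SUZ12 alone it was 0.75 and 1.87 for MTF2, so that 1 MTF2 library was above the SUZ12 medians of 1.40 and 1.40. At the 64 TSSs above IgG for MTF2 alone it was 1.13 and 1.46 for MTF2 and 0.78 and 0.83 for SUZ12. The first 2 groups carried more H3K27me3 (medians of 3.65 and 5.29 at shared TSSs and 3.00 and 4.58 at those of SUZ12 alone) than the last (2.06 and 3.13).

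Group by group, body-axis and forebrain genes had the highest signal for both proteins. Of the 39 TSSs of the 4 Hox clusters, whose homeobox genes set position along the body axis, 26 were above IgG for MTF2 and 34 for SUZ12. By cluster these were 9 and 10 of 11 for HoxA, 4 and 8 of 10 for HoxB, 6 and 8 of 9 for HoxC and 7 and 8 of 9 for HoxD, with MTF2 given first. In the forebrain and eye list 13 of 20 were above IgG for MTF2, all of them also for SUZ12 (among them Emx2, Six3, Dlx1 and Dlx2), and 17 for SUZ12, which added Six6, Dlx5, Dlx6 and Eomes. Dorsal neural tube and neural crest genes followed with 8 for MTF2 (such as Pax7, Msx1, Foxd3 and Tfap2a) and 12 for SUZ12 of 17. The ventral neural tube and Hedgehog response list had 6 for MTF2 and 9 for SUZ12 of 17, the neuronal differentiation list 8 and 18 of 34, the mesoderm list 6 and 14 of 29, and the endoderm list 7 and 10 of 19. These shares stand beside 1.27% and 1.89% of all tested TSSs.

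The remaining lists held fewer such TSSs, apart from the primed epiblast genes. Of 24 neural progenitor genes 2 were above IgG for MTF2 (Sox1 and Zic1) and 4 for SUZ12 (also Pou3f3 and Otx2). Of 40 WNT, BMP and FGF ligands 4 were above IgG for MTF2 (Wnt3a, Wnt7b, Wnt10b and Bmp2) and 9 for SUZ12. Of 21 naive pluripotency genes 2 were above IgG for MTF2 (Klf4 and Klf2) and 3 for SUZ12 (Klf4, Tbx3 and Fgf4). Of 14 primed epiblast genes 5 and 6 were, and of 22 PRC1 subunits the same 3 for each protein. Among 26 imprinted genes Igf2 was above IgG for both and Phlda2 for SUZ12, and among 36 ion channels and transmitter receptors Grik3 was for MTF2. Of 16 surface ectoderm and trophectoderm genes 1 was above IgG for MTF2 and 3 for SUZ12. The numbers were 0 for MTF2 and 0 for SUZ12 among 19 germline genes, 12 PRC2 subunits, 7 cell cycle inhibitors, 35 axon guidance genes, 78 ribosomal protein genes and 25 housekeeping genes. Of 58 clustered protocadherins 2 and 2 passed, with 0 in common, and of 495 tested olfactory receptors 4 and 5, with 0 in common.

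**Figure D2:**
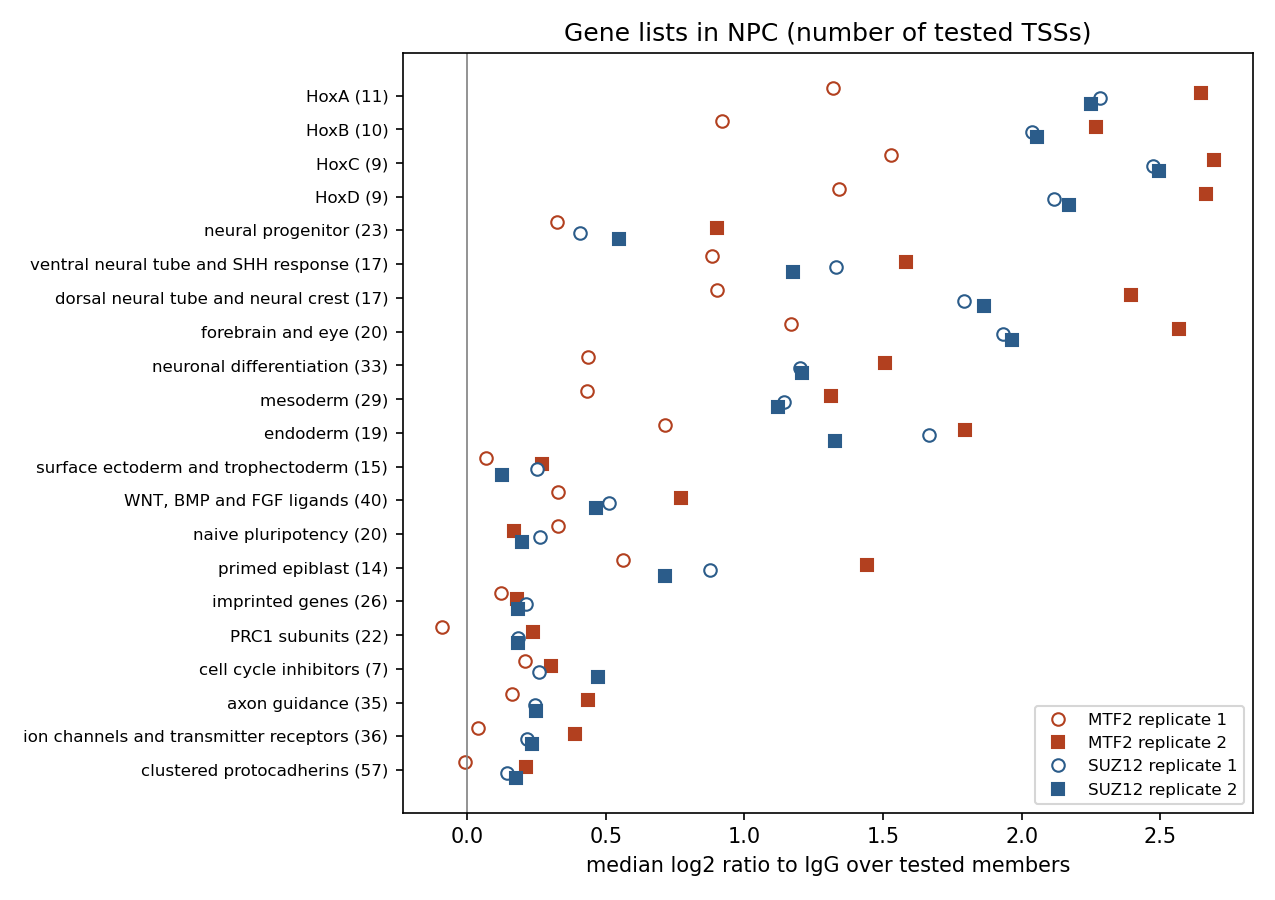
Median log2 ratio to IgG over the tested TSSs of each gene list with at least 2 Polycomb TSSs (number of tested TSSs in brackets), with 1 symbol for each MTF2 and SUZ12 library in NPC. The Hox, forebrain and dorsal lists lie farthest from 0, and in most lists MTF2 replicate 1 lies left and MTF2 replicate 2 right of the SUZ12 libraries.

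The direct test called no TSS as different between MTF2 and SUZ12. With TMM scaling 0 of 21564 TSSs (0%) passed an adjusted p of 0.05 in the edgeR quasi-likelihood test, 969 had an unadjusted p below 0.05, and the smallest adjusted p was 0.993. DESeq2 also called 0, with 13 unadjusted p-values below 0.05. The median log2 MTF2 over SUZ12 at Polycomb TSSs was 0.09. The median standard error (SE) of a Polycomb TSS was 0.35, which gives a 95% interval of 0.69 on either side, and the SE ran from 0.95 (Zic1) to 1.79 (Pax2) at the 7 most enriched TSSs named above, so that a missed threshold does not show that the proteins are equally placed.

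Because the MTF2 libraries differ in strength, the test was repeated with scaling factors taken from the Polycomb TSSs, which asks whether a TSS has more or less MTF2 than its SUZ12 and the other Polycomb TSSs would give. Again 0 TSSs passed (0%), with 22 unadjusted p-values below 0.05, 6 of them at Polycomb TSSs. Without MTF2 replicate 1 this scaling called 5 TSSs higher and 277 lower, of which 5 and 2 were Polycomb TSSs, again with the spread of SUZ12 alone, and without MTF2 replicate 2 it called 97 higher and 11 lower, of which 1 and 11 were. The median at Polycomb TSSs was -0.00 on this scale. On quantile-scaled levels, the difference of MTF2 over SUZ12 in replicate 1 correlated with that in replicate 2 across Polycomb TSSs at r = 0.08 (rho = 0.07), and at 0.10 (rho = 0.11) with the SUZ12 libraries exchanged.

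The outcome of leaving out a library depended on which MTF2 library was left. In these fits the spread comes from the 2 SUZ12 libraries alone, and the single MTF2 library is assumed to vary like them. Without MTF2 replicate 1, 181 TSSs (0.81% of 22334) were called higher for MTF2 and 3 lower. Without MTF2 replicate 2, 108 (0.479% of 22551) were called lower for MTF2 and 2 higher. Of these, 132 of the 181 and 101 of the 108 were Polycomb TSSs, and 23 TSSs (12.7% of the 181, 21.3% of the 108) were called in both fits with opposite signs. Lbx1 gave 0.80 (edgeR adjusted p = 0.000381) without MTF2 replicate 1 and -1.03 (adjusted p = 0.000322) without MTF2 replicate 2. With both libraries its log2 MTF2 over SUZ12 was 0.14 ± 1.61 (SE).

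**Figure D3:**
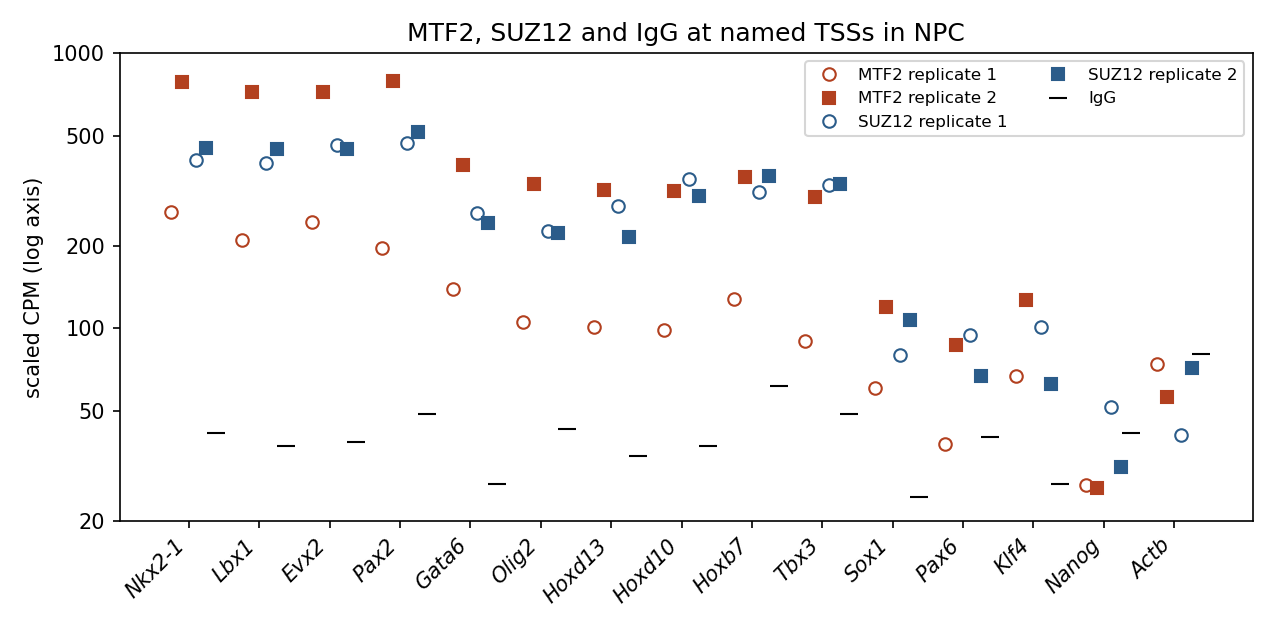
Scaled CPM (log axis) of the 2 MTF2 libraries, the 2 SUZ12 libraries and IgG at 15 named TSSs in NPC, 1 symbol per library. MTF2 replicate 1 (open circles) lies below and MTF2 replicate 2 (filled squares) above SUZ12 at Nkx2-1, Lbx1, Evx2, Pax2, Gata6 and Olig2, while at Tbx3 both MTF2 symbols lie below both SUZ12 symbols.

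At Hox genes the ratio of MTF2 to SUZ12 lay mostly below the middle of the Polycomb TSSs, without a call at any of them. On the Polycomb scaling 34 of 39 Hox TSSs (87.2%) had a log2 MTF2 over SUZ12 below 0, with a median of -0.29, against 50.3% and a median of -0.00 for the 968 Polycomb TSSs. The medians were -0.15 for HoxA, -0.38 for HoxB, -0.36 for HoxC and -0.11 for HoxD, and the single values ran from -0.82 (Hoxd10) to 0.27 (Hoxd9). Genes of a cluster are neighbours on 1 chromosome, and some of their windows overlap. With TMM scaling the medians were -0.00 for HoxA, -0.26 for HoxB, -0.24 for HoxC and -0.00 for HoxD, and those of HoxA and HoxD were 0.01 and 0.01 with background scaling factors. Without MTF2 replicate 1 the 4 medians with TMM were 0.57, 0.13, 0.20 and 0.48, beside 0.48 for all Polycomb TSSs. Without MTF2 replicate 2 they were -0.80, -0.97, -0.91 and -0.69, beside -0.41 for all Polycomb TSSs. HoxB and HoxC thus lay below the Polycomb median with either MTF2 library, and HoxA only with MTF2 replicate 1. Without MTF2 replicate 2 the forebrain and eye, endoderm, dorsal neural tube and mesoderm lists had medians of -0.79, -0.77, -0.76 and -0.71. The neuronal differentiation and ventral neural tube lists had -0.53 and -0.50. HoxA and HoxD were thus close to other lists with strong signal. Mesoderm (0.37) was also below the Polycomb median without MTF2 replicate 1. Leaving out 1 MTF2 library gave calls at Hox TSSs, and also in the forebrain and eye, endoderm and mesoderm lists. The spread in those fits comes from SUZ12 alone.

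The same order appeared in the share of signal. Of each library's signal over IgG at Polycomb TSSs, on library totals, 36 Hox TSSs held 11.1% and 10.2% for MTF2 and 12.7% and 13.3% for SUZ12 in NPC. In ESC they held 5.70% and 5.87% for MTF2 and 7.50% and 7.25% for SUZ12. In each cell type both MTF2 libraries lay below both SUZ12 libraries, and the Hox share was higher in NPC than in ESC for each protein. ESC SUZ12 was among the marks that chose the Polycomb TSSs, so the ESC values are a description. With TMM scaling the NPC shares were 10.8% and 10.0% for MTF2 and 12.4% and 13.0% for SUZ12, with an exact two-sided permutation p of 0.333, the smallest that 2 against 2 allows. In counts without IgG subtraction the NPC shares were 6.73% and 8.25% for MTF2 and 8.89% and 9.24% for SUZ12. Among single Polycomb TSSs both MTF2 shares lay below both SUZ12 shares at 163 of 972 (16.8%), and at 18 of the 36 Hox TSSs. They lay above at 196 (20.2%), and at 2 of the Hox TSSs. Of 18 lists with at least 5 Polycomb TSSs, both MTF2 shares lay below in 8, which were the 4 Hox clusters, the dorsal neural tube, forebrain and mesoderm lists and the clustered protocadherins, and above in 1, the imprinted genes.

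**Figure D4:**
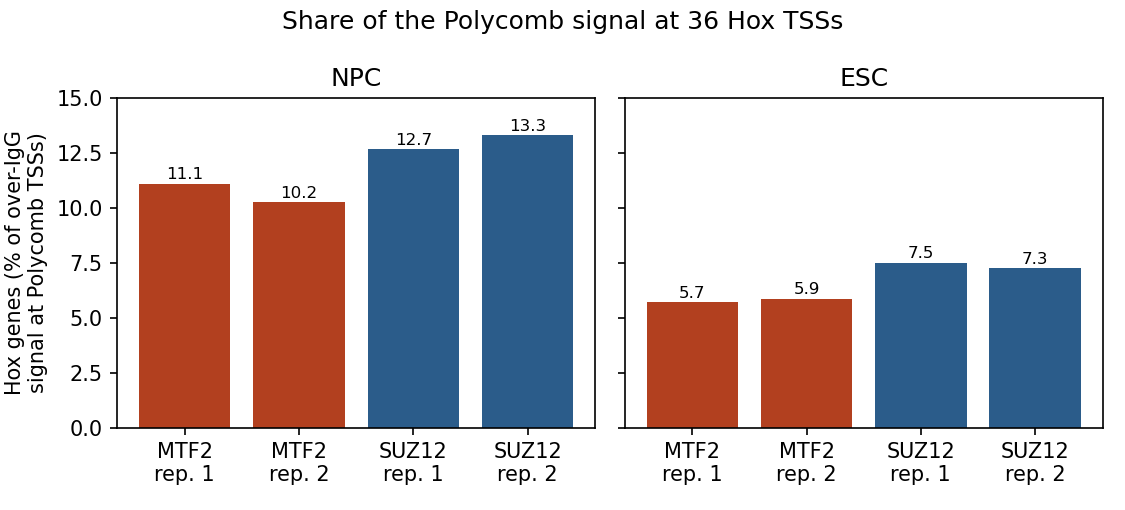
Share of each library's over-IgG signal at Polycomb TSSs (percent, on library totals) that fell at 36 Hox TSSs, in NPC (left) and ESC (right), 1 bar per library. Both MTF2 bars are lower than both SUZ12 bars in each cell type: 11.1% and 10.2% against 12.7% and 13.3% in NPC, and 5.70% and 5.87% against 7.50% and 7.25% in ESC.

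**Figure D5:**
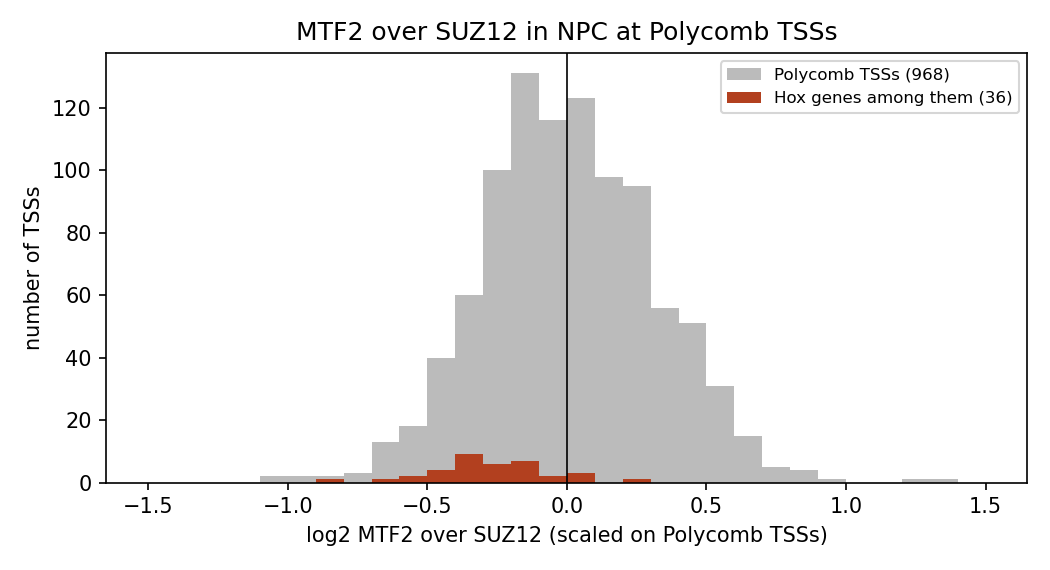
Number of TSSs by log2 MTF2 over SUZ12, scaled on Polycomb TSSs, for the 968 tested Polycomb TSSs (grey) and the 36 Hox TSSs among them (red). The Hox values lie mostly left of 0, where the median of all Polycomb TSSs is -0.00.

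With both MTF2 libraries in 1 ratio on the Polycomb scaling, TSSs with the most H3K27me3 were below 0 more often, inside and outside the Hox clusters. Among Polycomb TSSs divided into 4 equal groups by H3K27me3 in NPC, the 3 lower groups each had 111 of 242 values of MTF2 over SUZ12 below 0 (45.9%), with medians of 0.03, 0.04 and 0.03. The top group had 154 of 242 (63.6%) and a median of -0.10. Within the top group 26 of 30 Hox TSSs (86.7%) and 128 of 212 others (60.4%) were below 0, with medians of -0.29 and -0.07. Both proteins had more signal where the mark was strongest. The median log2 ratio to IgG was 1.21 and 2.56 for MTF2 and 1.97 and 2.06 for SUZ12 in the top group, against 0.19 and 0.62 for MTF2 and 0.32 and 0.35 for SUZ12 in the lowest. From the lowest to the top group MTF2 replicate 1 rose least and MTF2 replicate 2 most of the 4 libraries. A lower ratio in the top group was therefore not shared by both MTF2 libraries.

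Tbx3, a T-box factor that also belongs to the naive pluripotency list, had the smallest p of all TSSs on the Polycomb scaling. Its window (chr5:119668733-119673732, mm10) held 89.8 and 301 CPM for MTF2, against 332 and 334 CPM for SUZ12 and 48.9 CPM for IgG. Both MTF2 values were below both SUZ12 values, although MTF2 replicate 2 exceeded SUZ12 at most Polycomb TSSs. The log2 MTF2 over SUZ12 was -0.94 ± 0.29 (SE) on the Polycomb scaling (edgeR adjusted p = 1.00) and -0.77 ± 1.00 with TMM. Groups that do not overlap in this direction were found at 15.3% of all tested TSSs, and in the other direction at 16.2%. Among the 968 Polycomb TSSs they were found at 45 (4.65%) in this direction and at 94 (9.71%) in the other.

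Hoxd10 (chr2:74689391-74694390, mm10) had 98.8 and 315 CPM for MTF2, against 348 and 302 CPM for SUZ12 and 37.4 CPM for IgG. The MTF2 values were the lowest and the second highest of the 4, and the log2 MTF2 over SUZ12 on the Polycomb scaling was -0.82 ± 0.29 (SE, edgeR adjusted p = 1.00). With TMM it was -0.65 for Hoxd10. Leaving out MTF2 replicate 1 gave -0.01 and leaving out MTF2 replicate 2 gave -1.72, beside Polycomb medians of 0.48 and -0.41. Hoxb7, whose window overlaps that of Hoxb8, had 128 and 354 CPM for MTF2, against 313 and 358 CPM for SUZ12 and 61.8 CPM for IgG, and gave -0.63 ± 0.28. Hoxd13, the last gene of its cluster, had 101 and 319 CPM for MTF2, against 279 and 215 CPM for SUZ12 and 34.5 CPM for IgG, and gave -0.40 ± 0.30. At none of these 3 genes were the MTF2 and SUZ12 libraries separate.

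Among 5 neural tube genes, Olig2, Sox1 and Foxa2 passed the ratio to IgG for both proteins and Pax6 for neither. Olig2, a factor of motor neuron and oligodendrocyte progenitors, had 106 and 335 CPM for MTF2, against 227 and 222 CPM for SUZ12 and 43.1 CPM for IgG. Its log2 MTF2 over SUZ12 was -0.19 ± 0.30 on the Polycomb scaling, and its log2 ratio to IgG was 1.23 and 2.92 for MTF2 and 2.34 and 2.30 for SUZ12 in NPC, against 2.57 and 2.03 for MTF2 and 2.57 and 2.43 for SUZ12 in ESC. Sox1, an early neural factor, had 60.6 and 119 CPM for MTF2, against 79.9 and 108 CPM for SUZ12 and 24.4 CPM for IgG. Its ratio to IgG was 1.22 and 2.21 for MTF2 and 1.63 and 2.04 for SUZ12 in NPC, and between 3.99 and 4.46 in the 4 ESC libraries. Nkx2-2, a ventral Hedgehog target in a window shared with 2 other genes, had 58.4 and 119 CPM for MTF2, against 106 and 91.9 CPM for SUZ12 and 30.2 CPM for IgG. Pax6, an eye and neural progenitor factor, had 38.2 and 86.9 CPM for MTF2, against 95.0 and 67.2 CPM for SUZ12 and 40.2 CPM for IgG. MTF2 replicate 1 did not exceed IgG at Pax6. Foxa2, a floor plate and endoderm factor, had 83.1 and 156 CPM for MTF2, against 97.2 and 114 CPM for SUZ12 and 31.6 CPM for IgG. Across these 5 genes the log2 MTF2 over SUZ12 on the Polycomb scaling lay between -0.49 (Pax6) and 0.09 (Foxa2), each within 1 SE of 0.

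Gata6, an endoderm factor in a window shared with 1 other gene, had 139 and 392 CPM for MTF2, against 263 and 242 CPM for SUZ12 and 27.3 CPM for IgG, with MTF2 on either side of SUZ12. Brachyury (T), a mesoderm factor, had 60.6 and 105 CPM for MTF2, against 73.4 and 78.4 CPM for SUZ12 and 51.7 CPM for IgG, with MTF2 again on either side of SUZ12. Klf4, a pluripotency factor, had 67.3 and 127 CPM for MTF2, against 101 and 62.7 CPM for SUZ12 and 27.3 CPM for IgG. Its ratio to IgG was above 1 in the 4 NPC libraries and between -0.44 and 0.20 in the 4 ESC libraries. In ESC, on library totals, Klf4 had 57.7 and 41.8 CPM for MTF2, against 45.5 and 46.3 CPM for SUZ12 and 70.4 CPM for IgG. The IgG level, lower in NPC, thus entered the gap between these ratios. Nanog and Pou5f1, the other pluripotency factors named, stood near IgG. Pou5f1 had 40.4 and 32.3 CPM for MTF2, against 49.7 and 44.8 CPM for SUZ12 and 41.7 CPM for IgG. Nanog had 26.9 and 26.3 CPM for MTF2, against 51.8 and 31.4 CPM for SUZ12 and 41.7 CPM for IgG. Cdkn2a, a cell cycle inhibitor and Polycomb target of other cells, had 44.9 and 46.5 CPM for MTF2, against 45.3 and 51.5 CPM for SUZ12 and 37.4 CPM for IgG. Cdkn1c, an imprinted cell cycle inhibitor, had 44.9 and 139 CPM for MTF2, against 77.7 and 76.2 CPM for SUZ12 and 38.8 CPM for IgG, the wide spread of the MTF2 libraries seen at other Polycomb TSSs. The TSSs of Mtf2 and Suz12 gave log2 MTF2 over SUZ12 of 0.40 ± 0.34 and 0.22 ± 0.37 with TMM, and Actb, a housekeeping gene, 0.21 ± 0.35 (SE).

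None of the 10 TSSs with the smallest p on the TMM scale, 5 in each direction, was a Polycomb TSS. Sox30, a germ cell factor, had 67.3 and 78.8 CPM for MTF2, against 36.7 and 29.1 CPM for SUZ12 and 41.7 CPM for IgG (log2 1.15 ± 0.32, edgeR adjusted p = 0.993). Pygl, liver glycogen phosphorylase, had 22.4 and 24.2 CPM for MTF2, against 64.8 and 56.0 CPM for SUZ12 and 44.6 CPM for IgG (log2 -1.36 ± 0.35, edgeR adjusted p = 0.993). At both genes the groups did not overlap, and the IgG value lay between them. Choosing by the smallest p favours such separation, which was found at 16.2% (MTF2 higher) and 15.3% (MTF2 lower) of all tested TSSs. Prkra, Hspb6 and Tcf25 were also among the 5 higher TSSs, and Haghl, Aig1, Klhl28 and Helz2 completed the 5 lower ones, with 6 to 39 counts per antibody library at the 10. On the Polycomb scaling Lrrc48, Zfp652os and Esrp2 joined Prkra and Hspb6 as higher, and Rp2 and Aig1 joined Tbx3, Hoxd10 and Hoxb7 as lower. Esrp2, an epithelial splicing factor, had H3K27me3 called in NPC and 114 and 152 CPM for MTF2, against 66.9 and 78.4 CPM for SUZ12 and 51.7 CPM for IgG, both MTF2 values being the higher.

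Both proteins were highest where H3K27me3 was called in NPC. The 2280 tested TSSs with H3K27me3 in both cell types had median log2 ratios to IgG of 0.24 and 0.59 for MTF2 and 0.38 and 0.36 for SUZ12. The 781 TSSs with the mark in NPC only had 0.19 and 0.49 for MTF2 and 0.33 and 0.27 for SUZ12, whereas the 2831 with the mark in ESC only had -0.10 and -0.14 for MTF2 and -0.08 and -0.08 for SUZ12. At 338 TSSs with SUZ12 called in ESC but no H3K27me3 call in NPC, the medians were 0.09 and 0.35 for MTF2 and 0.19 and 0.16 for SUZ12 in NPC, against 2.36 and 1.91 for MTF2 and 2.03 and 1.93 for SUZ12 in ESC. High SUZ12 in ESC and the lack of the mark in NPC chose these TSSs, so the gap between the cell types is no result. Summed scaled CPM gave an exact permutation p of 1 for MTF2 against SUZ12 in each of these classes except the ESC-only one, where it was 0.333, the smallest possible. The median log2 MTF2 over SUZ12 with TMM was 0.07, 0.08, -0.05 and -0.00 for the mark in both, NPC only, ESC only and neither, beside 0.00 for all tested TSSs.

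Polycomb TSSs that also carried H3K4me3 in NPC had less of both proteins. The 599 tested with H3K4me3 called had median log2 ratios to IgG of 0.43 and 1.14 for MTF2 and 0.69 and 0.66 for SUZ12, and the 369 without it had 0.64 and 1.60 for MTF2 and 1.18 and 1.07 for SUZ12. The direction was the same in the 4 libraries. The share of the over-IgG Polycomb signal at TSSs with H3K4me3 was 47.1% and 47.0% for MTF2 and 44.7% and 45.5% for SUZ12, both MTF2 values being the higher, with medians of MTF2 over SUZ12 on the Polycomb scaling of 0.03 with H3K4me3 and -0.03 without.

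CpG content was described for the promoters because MTF2 binds CpG-rich DNA. The searched letters were CG, which read the same on both strands, in windows of 300 bases. A promoter whose start matched the counted TSS was found for 547 of 968 Polycomb TSSs, and these held a median of 23 CG, against 15 for 13174 matched tested TSSs. At least 1 CG is in 94.6% and at least 10 CG in 43.5% of all 32851 promoters of the RefSeq table, and at least 10 were held by 88.8% of the Polycomb promoters and 61.3% of the matched tested TSSs. In 4 equal groups from the lowest to the highest MTF2 over SUZ12, the median CG count was 20.5, 22, 25 and 26. In groups by MTF2 over IgG, in the same order, it was 25.5, 25, 22 and 20, and by SUZ12 over IgG it was 26, 26, 22 and 20. Across the 547 TSSs the CG count correlated with the log2 ratio to IgG at r = -0.11 and -0.15 for MTF2 and -0.17 and -0.18 for SUZ12, as a description.

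Between cell types, 0 of 22250 TSSs (0%) had a difference of MTF2 over SUZ12 in NPC that departed from that in ESC by the edgeR interaction term, with 1135 unadjusted p-values below 0.05 and 0 calls by DESeq2 (90 unadjusted). The smallest p-values were at Bcl2a1c (log2 2.29), BB031773 and Pum3 on the positive side and at Nkapl (log2 -1.65), Tmem174 and Igf2bp2 on the negative side, none of them Polycomb TSSs. For Nkx2-1 the interaction was 0.13 ± 1.20, for Tbx3 -0.45 ± 0.60 and for Hoxd10 -0.20 ± 0.90 (log2, NPC minus ESC, SE).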

How the data were processed

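The deposited table holds raw counts per window, without normalization, as whole numbers that sum to different totals. Alignment to mm10 used Bowtie2 2.3.4.3, per the submitters' processing notes, which also name Picard 2.19 without its role. How windows were counted and duplicates handled is not stated in the labels. Spike-in DNA of Drosophila was added, per the labels' protocols, and is not used here, so no global gain or loss of an antibody's signal was measured. Of 24467 windows 5370 overlap another, and positions are printed 1-based in mm10. PCR copies can repeat a molecule, and count floors cover counting error only.

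MTF2 was tested against SUZ12 over 4 libraries with edgeR 4.0.16 (quasi-likelihood, R 4.3.3), filterByExpr at a minimum count of 10, and TMM factors from all tested TSSs or from the Polycomb TSSs. Those TSSs were called in a fit of the 18 other libraries (log2 of at least 1 over IgG, adjusted p below 0.05), and the NPC IgG library is shared with the ratios to IgG. Adjusted p-values are Benjamini-Hochberg over all tested TSSs, and alternatives used DESeq2 1.42.0 and limma 3.58.1. Signal over IgG is scaled CPM minus that of IgG. The 26 gene lists, the Polycomb TSSs and the naming rule were chosen with earlier results of these data known. The rule takes 18 landmarks, the smallest-p member of a list if it passed, the 5 smallest p-values per direction and scaling where none passed, the 5 highest ratios to IgG per protein, and 3 interactions per direction. It skips olfactory receptors, small RNAs and predicted genes, and some genes it takes are not reported here. Other genes listed as above IgG, the Hox total, the groups by H3K27me3 and the shares of signal were chosen after values were seen. Simulated data of these depths had 1 dispersion and no difference in strength between replicates, with changes planted only at TSSs with higher counts. They gave back 16% of 100 TSSs changed by a log2 of 1 and 91% of 100 changed by 2. The 21564 simulated TSSs also gave 7 false calls. The 2 SUZ12 libraries were nearly as close as counting error allows (chi-square over degrees of freedom 1.04, against 1.74 for MTF2), and were kept apart. Over all tested TSSs the deviations of MTF2 and SUZ12 libraries with the same replicate number correlated at -0.02. With SUZ12 so close to counting error, this cannot show whether libraries of 1 number shared a culture.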

Additional observations from a re-analysis of the deposited data

How the results depend on the processing

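The count of TSSs differing between MTF2 and SUZ12 was 0 in each direction with DESeq2, library totals, background TMM factors, no filter, a minimum count of 30, non-overlapping windows, 1 fit over 22 libraries, a replicate block (0 higher and 0 lower, also for the Polycomb scaling and the interaction) and, chosen after seeing the data, quantile scaling with limma voom. Leaving out 1 library, which leaves the spread of the other protein to stand for both, gave 0 to 181 higher and 0 to 108 lower. At Polycomb TSSs on the Polycomb scaling it gave 0 to 5 higher and 0 to 11 lower, and for the interaction 0 higher and 0 to 1 lower (without ESC MTF2 replicate 2 and without NPC MTF2 replicate 2). MTF2 was above IgG at 9 TSSs and SUZ12 at 2. For MTF2 this became 1 with MTF2 and IgG alone, 0 with 22 libraries, 20 with IgG of both cell types, 3 with library totals, 3 at a minimum count of 30, 3 at a log2 of at least 2, 274 with no model, and 1 to 842 with 1 library left out. For SUZ12 it became 448 with SUZ12 and IgG alone, 0 with 22 libraries, 1 with IgG of both cell types, 1 at a minimum count of 30, 408 with no model, and 0 to 448 with 1 library left out. The median log2 MTF2 over SUZ12 at Polycomb TSSs, 0.09, was -0.03 with quantile scaling, 0.48 without MTF2 replicate 1 and -0.41 without MTF2 replicate 2. Of 576 values of 47 named TSSs under alternatives 43 had another sign, 19 of them with an MTF2 library left out, and of 453 list and class medians 92 did. The causes were not tested.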

Other observations

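JARID2, the PRC2.2 subunit, was described at the TSSs of MTF2 and SUZ12. At the 210 TSSs above IgG for both proteins its median log2 ratio to IgG in NPC was 0.93 and 0.75, at the 64 of MTF2 alone 0.59 and 0.60, and at the 198 of SUZ12 alone 0.60 and 0.48, against -0.00 and -0.01 over all tested TSSs. These sets were chosen by a ratio to the same IgG library, so a low IgG count raises the JARID2 ratio too. H3K4me3 had 0.12 and 0.20, 0.57 and 0.70, and 0.29 and 0.38 in the same order, against 0.19 and 0.31 over all tested TSSs. The values are therefore a description. Of the 100 TSSs with the highest ratio to IgG, JARID2 replicate 1 shared 48 and 46 with the MTF2 libraries and 54 and 53 with the SUZ12 libraries, and JARID2 replicate 2 shared 28 and 23 with MTF2 and 25 and 25 with SUZ12. The 2 JARID2 libraries shared 32 with each other.

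The MTF2 libraries of NPC shared 30 to 38 of their top 100 with the MTF2 libraries of ESC, and the SUZ12 libraries of NPC shared 39 to 45 with the SUZ12 libraries of ESC. Across the proteins, the MTF2 libraries of NPC shared 32 to 43 with the SUZ12 libraries of ESC, and the SUZ12 libraries of NPC shared 32 to 38 with the MTF2 libraries of ESC. Within ESC an MTF2 and a SUZ12 library shared 78 to 80.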
